A study of Rattus norvegicus with 12 samples.

Results

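The genes described are 10 members of the Notch pathway: the ligands Jag1, Jag2 and Dll4, the receptors Notch1, Notch2, Notch3 and Notch4, and the target genes Hes1, Hey1 and Heyl. They were selected by symbol, as every non-control probe whose transcript belongs to one of these genes, and the selection used the log2 signal of those probes across the 4 groups below. Differences of these genes between those groups are therefore given as descriptions, with no p-value. Of the 10 genes, 9 had a probe, with 16 probes among the 61657 non-control probes of the array, and no probe was matched to Jag2. The filter on dim probes kept 13 of the 16 and left 8 genes among 29603 features tested, with both Notch2 probes removed. The probe used for each of the 8 genes, the brightest of its kept probes, was well above background on all 12 arrays.

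Notch signalling passes between touching cells. A ligand on one cell binds a receptor on its neighbour, the receptor is cut by a metalloprotease and then by gamma-secretase, and the freed intracellular domain joins the DNA-binding protein RBPJ in the nucleus to switch on repressors of the Hes and Hey families. In the kidney the pathway is known for setting nephron segments during development and for the differentiation of endothelium, vascular smooth muscle and mesangial cells.

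Expression was measured with one-colour Agilent arrays, 1 array per rat, using renal cortex from 12 male rats of the Sprague-Dawley strain (Crl:CD(SD)), bought at 5 weeks of age. The 4 groups of 3 rats were rats given tert-butyl alcohol (TBA, a solvent and fuel additive metabolite) and killed under isoflurane, vehicle rats given water and killed under isoflurane, TBA rats killed under CO2-O2, and vehicle rats killed under CO2-O2. TBA was given at 1000 mg/kg/day for 4 weeks, and all rats were bled 24 h after the last dose. The series' design text calls the 3 rats of a group biological replicates. A level here is the log2 signal of a probe minus the 75th percentile of its array, so that a value of 0 is as bright as that percentile. Levels of different probes cannot be set against each other. Differences are TBA minus vehicle, or isoflurane minus CO2-O2, on the log2 scale with the standard error (SE) of the limma fit and n = 3 rats per group. In whole cortex, fewer cells of a type and less RNA per cell cannot be told apart.

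The share of probes well above background ran from 61.6% to 71.0% over the 12 arrays. The 3 TBA isoflurane arrays filled slide 3, so slide and treatment cannot be told apart under isoflurane. Slide 2 held the 3 vehicle isoflurane arrays with TBA CO2-O2 rats 1 and 2, and slide 1 held the 3 vehicle CO2-O2 arrays with TBA CO2-O2 rat 3. Scan day 1 covered slide 1, and scan day 2 covered slides 2 and 3. All 7 markers of the proximal tubule, the main cell type of the cortex, were well above background on all 12 arrays. They differed between TBA and vehicle rats: all 7 were higher with TBA under isoflurane (median 0.27, none past the limma test) and 6 of 7 under CO2-O2 (median 0.15, 1 past it). In the averaged TBA effect 2 rose, Slc5a12 (0.68 ± 0.08, limma adjusted p = 0.00993) and Slc22a8 (0.38 ± 0.06, limma adjusted p = 0.0292). Their mean level ran from 6.52 to 6.67 in TBA and from 6.20 to 6.39 in vehicle rats under isoflurane, and from 6.45 to 6.60 in TBA and from 6.20 to 6.33 in vehicle rats under CO2-O2, without overlap in either arm. Their part in the differences below was not tested.

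Promoter windows were searched for the core letters known to be bound by RBPJ, the factor through which Notch receptors act. Of the 10 genes, 8 had at least 1 entry among the RefSeq promoters of the GRCr8 assembly (250 bases before to 50 bases after the start), while Dll4 and Hey1 had none. The core TGGGAA, searched on both strands and so also as TTCCCA, was in 25.7% of the 33469 promoter windows, and 3.8% held it at least 2 times. Of the 9 entries of the members 3 held it, those of Hes1, Notch3 and Notch4, and the other 6 did not. Hes1, the best known direct target, is shown with Notch3 and Jag1, the receptor and the ligand with the most distinct group differences below. Capitals mark the core. The Hes1 window is chr11:84212996-84213295 on the minus strand, the Notch3 window chr7:11834536-11834835 on the minus strand and the Jag1 window chr3:144894834-144895133 on the minus strand.
Hes1: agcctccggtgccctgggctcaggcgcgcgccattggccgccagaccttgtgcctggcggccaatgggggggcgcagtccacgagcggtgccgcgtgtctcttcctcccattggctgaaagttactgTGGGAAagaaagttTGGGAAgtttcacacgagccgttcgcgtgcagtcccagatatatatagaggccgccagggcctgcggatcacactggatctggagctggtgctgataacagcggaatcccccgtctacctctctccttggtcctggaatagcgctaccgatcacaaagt
Notch3: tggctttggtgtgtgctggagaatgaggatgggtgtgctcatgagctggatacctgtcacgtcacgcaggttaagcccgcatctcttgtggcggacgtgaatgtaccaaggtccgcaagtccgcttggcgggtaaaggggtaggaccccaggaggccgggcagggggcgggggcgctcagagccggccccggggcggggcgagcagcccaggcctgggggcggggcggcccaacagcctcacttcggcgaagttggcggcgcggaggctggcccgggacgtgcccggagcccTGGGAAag
Jag1: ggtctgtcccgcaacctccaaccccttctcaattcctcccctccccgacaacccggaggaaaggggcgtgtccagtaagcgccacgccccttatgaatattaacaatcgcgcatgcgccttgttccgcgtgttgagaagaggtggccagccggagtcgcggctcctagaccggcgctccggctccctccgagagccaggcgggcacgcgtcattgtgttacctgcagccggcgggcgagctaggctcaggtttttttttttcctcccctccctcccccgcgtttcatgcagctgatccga
The Hes1 window held 2 copies on the strand of the gene, starting at positions -123 and -109 from the start. The Notch3 window held 1, starting 42 bases after the start, and the Notch4 window (not shown) held 2 on the opposite strand, at -246 and -93. These letters are a description of the windows, and no binding was measured.

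Among the ligands, Jag1 differed between TBA and vehicle rats in opposite directions under the 2 anesthetics. Jag1 encodes Jagged1, a ligand of Notch receptors. Under isoflurane its level was 0.68, 0.29 and 0.39 in TBA rats, against -0.03, 0.12 and 0.21 in vehicle rats. Under CO2-O2 the level was 0.68, 0.41 and 0.53 in TBA rats, against 0.98, 0.92 and 0.97 in vehicle rats. The groups did not overlap in either arm, with every TBA rat above every vehicle rat under isoflurane and below every vehicle rat under CO2-O2. The TBA difference was 0.35 ± 0.11 under isoflurane and -0.42 ± 0.11 under CO2-O2, and the gap between these was 0.77 ± 0.16. Groups failed to overlap in 24.0% of all features under isoflurane and 21.0% under CO2-O2, and in opposite directions in both arms in 1.61%. Since the choice of genes used these groups, nothing is read from Jag1 being among them.

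The spread of Jag1 over the 4 groups lay mainly in the vehicle rats. Isoflurane minus CO2-O2 was -0.09 ± 0.11 in TBA rats and -0.86 ± 0.11 in vehicle rats, which were on different slides scanned on different days. In TBA rats the anesthetic groups overlapped, and in vehicle rats they lay far apart. The difference between the TBA rat on slide 1 and the vehicle rats of that slide was -0.43, beside -0.42 from all 3 TBA rats. This comparison rests on 1 TBA rat and was added after seeing the data. The part of slide in the Jag1 differences was not tested. With each of the 12 arrays left out in turn, the TBA difference of Jag1 stayed between 0.24 and 0.44 under isoflurane and between -0.49 and -0.35 under CO2-O2.

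**Figure D1:**
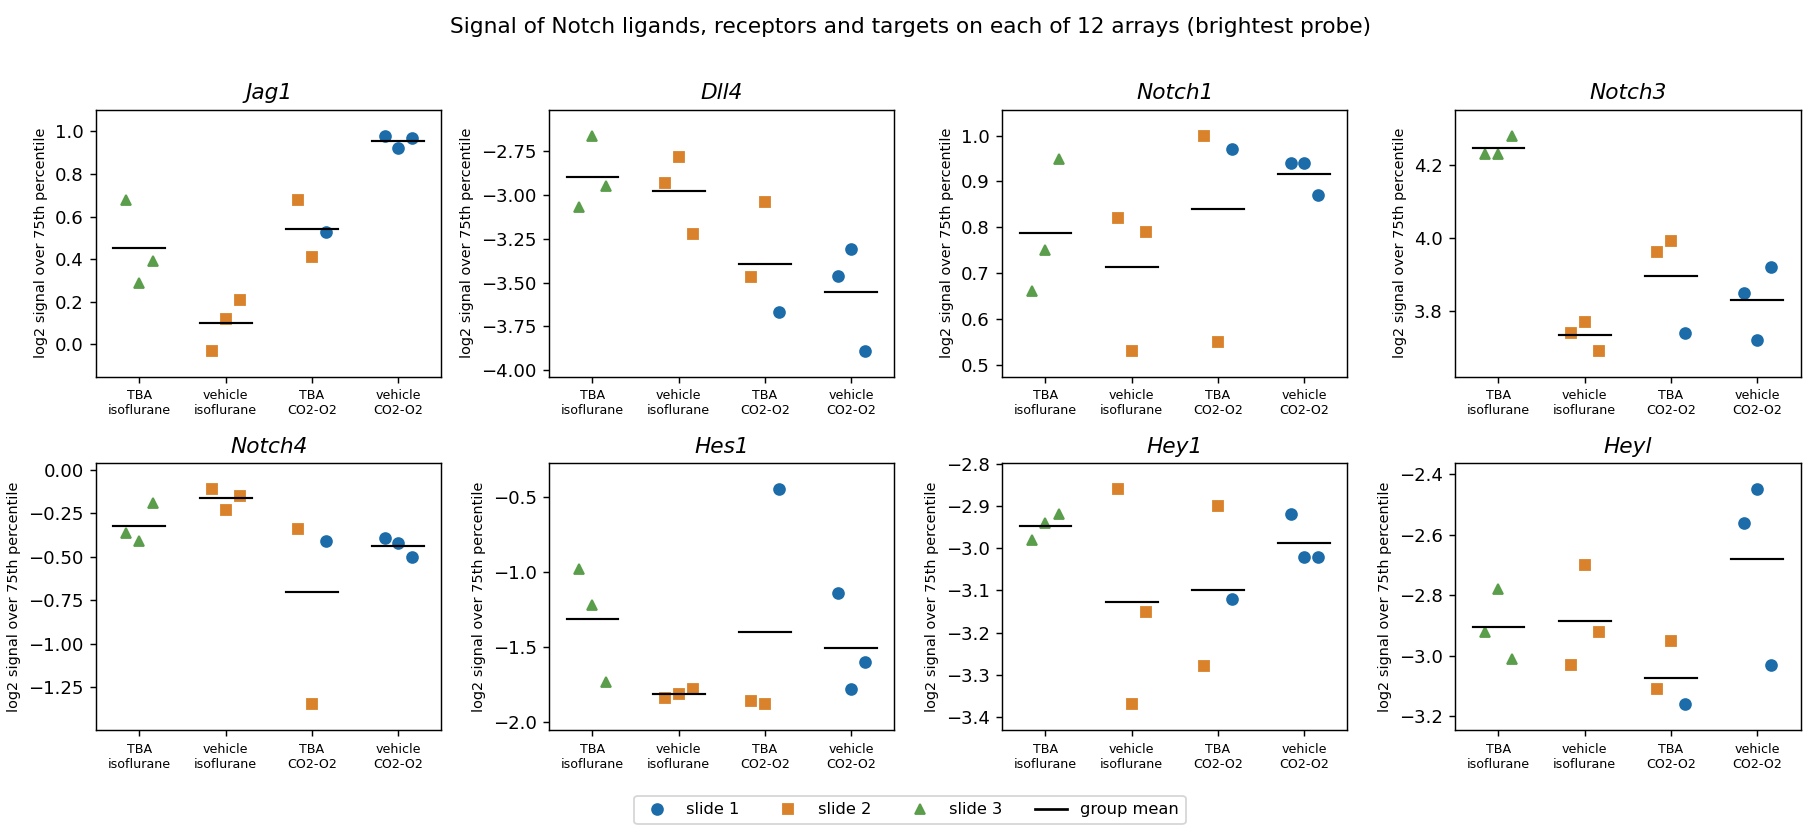
Log2 signal over the array's 75th percentile for the brightest probe of 8 genes, 1 point per rat, in 4 groups of 3 (TBA and vehicle under isoflurane, then TBA and vehicle under CO2-O2). Colour and shape give the slide, lines are group means and each panel has its own scale. Jag1 is higher with TBA under isoflurane and lower under CO2-O2, and Notch3 stands at 4.23 to 4.28 on the 3 TBA isoflurane arrays, all on slide 3.

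The medians of 2 marker lists, fibroblasts and immune cells, had the same signs as the Jag1 differences, with no marker past the test in either TBA comparison. The 5 tested of 6 listed fibroblast markers (Col1a1, Col1a2, Col3a1, Dcn and Pdgfra) had a median TBA difference of 0.25 under isoflurane, with single genes between 0.00 and 0.37. Under CO2-O2 their median was -0.21, with all 5 lower (-0.39 to -0.09), and isoflurane minus CO2-O2 in vehicle rats had a median of -0.43 with all 5 lower. Their mean level ran from 2.67 to 2.74 in TBA and from 2.16 to 2.79 in vehicle rats under isoflurane, and from 2.67 to 2.84 in TBA and from 2.81 to 3.05 in vehicle rats under CO2-O2, so the group ranges overlapped in both arms. All 5 were well above background on all 12 arrays. Of the 5 single markers, only Pdgfra lay apart without overlap in both arms, as Jag1 did. It read 2.64, 2.70 and 2.61 in TBA and 2.43, 2.07 and 2.35 in vehicle rats under isoflurane (0.37 ± 0.11). The CO2-O2 values of Pdgfra were 2.35, 2.58 and 2.58 in TBA and 2.64, 2.62 and 2.87 in vehicle rats (-0.21 ± 0.11). Over all features 1.61% lay apart in both arms in opposite directions. The 5 immune markers had a median TBA difference of 0.16 under isoflurane (3 higher) and -0.13 under CO2-O2 (2 higher). Isoflurane minus CO2-O2 in vehicle rats had a median of -0.40 in the immune list, with all 5 lower, and 3 of the 5 were well above background on all 12 arrays. Their mean level ran from -2.45 to -1.98 in TBA and from -2.49 to -2.20 in vehicle rats under isoflurane, and from -2.13 to -1.74 in TBA and from -2.13 to -1.66 in vehicle rats under CO2-O2. All 7 proximal tubule markers were higher with TBA under isoflurane, and 6 of the 7 were higher under CO2-O2. The exception, Lrp2, stood at 0.26 ± 0.08 under isoflurane and -0.15 ± 0.08 under CO2-O2. It did not pass (limma adjusted p = 0.159 and 0.439), but its groups, like those of Jag1, did not overlap in either arm. The part of these markers in the Jag1 differences was not tested.

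Dll4, the ligand that endothelial cells use in vessel sprouting, showed overlapping TBA and vehicle groups in both arms. Its brighter probe read -3.07, -2.66 and -2.95 in TBA rats and -2.93, -2.78 and -3.22 in vehicle rats under isoflurane. The CO2-O2 arrays read -3.47, -3.04 and -3.67 in TBA rats and -3.46, -3.31 and -3.89 in vehicle rats. The TBA differences were 0.09 ± 0.20 under isoflurane and 0.16 ± 0.20 under CO2-O2, each smaller than its SE. The larger contrast was between the anesthetics, 0.54 ± 0.14 averaged over both treatments, which became 0.26 with scan day in the fit. The other Dll4 probe was dimmer (-5.36 to -3.78) and well above background on 11 of 12 arrays, with 2 of 3 in TBA isoflurane rats. It gave -0.06 ± 0.23 for the same contrast, so the probes did not show it together, but the size of this value is not exact. Jag1 and Dll4 ran opposite ways over the 12 arrays (Pearson r = -0.717, Spearman rho = -0.741), and r was -0.579 for deviations from the group means. The arrays behind these correlations share slides and groups.

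Among the receptors, Notch3 stood out in 1 group. Notch3 is the receptor of vascular smooth muscle and mesangial cells. Its brighter probe read 4.23, 4.23 and 4.28 in TBA isoflurane rats, against 3.74, 3.77 and 3.69 in vehicle isoflurane rats. In rats killed under CO2-O2 it read 3.96, 3.99 and 3.74 with TBA, against 3.85, 3.72 and 3.92 with vehicle. The TBA isoflurane rats lay above every other array, while the CO2-O2 groups overlapped. TBA and vehicle groups failed to overlap in 24.0% of all features under isoflurane. The TBA difference was 0.51 ± 0.08 under isoflurane and 0.07 ± 0.08 under CO2-O2, a gap of 0.45 ± 0.11. The CO2-O2 value turned to -0.09 with slide in the fit, where it rests on TBA rat 3 alone.

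The other Notch3 probe did not show this pattern. It read -2.95, -2.58 and -2.74 in TBA and -2.61, -2.77 and -2.77 in vehicle rats under isoflurane, a difference of -0.04 ± 0.12. Under CO2-O2 its difference was -0.07 ± 0.12. Over the 12 arrays the 2 Notch3 probes correlated at r = -0.01. With the mean of both probes as the value of the gene, the isoflurane difference was 0.24. Both probes were well above background on all 12 arrays, and the files used here give no probe sequence to tell which part of the transcript each reads.

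Beside Notch3 stand the markers of the cells known to carry it. Of 9 mural and mesangial markers tested of 10 listed, 3 were higher with TBA under isoflurane (median -0.07, range -0.50 to 0.13) and 4 under CO2-O2 (median -0.04), and none passed the limma test. Their mean level ran from -0.20 to 0.00 in TBA and from -0.11 to 0.06 in vehicle rats under isoflurane, and from -0.12 to 0.07 in TBA and from -0.11 to 0.18 in vehicle rats under CO2-O2. The 3 named genes most like Notch3 over the 12 arrays were Cck, a gut and brain peptide (r = 0.970, rho = 0.923), the palmitoyltransferase Zdhhc18 (r = 0.956, rho = 0.895) and the interferon-induced GTPase Igtp (r = 0.955, rho = 0.909). Within groups their r was 0.767, 0.601 and 0.840. These values describe 12 arrays that share slides and groups.

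Notch1, a receptor with broad use in developing and adult tissues, was read differently by its 2 probes. The brighter one read 0.66, 0.75 and 0.95 in TBA and 0.82, 0.53 and 0.79 in vehicle rats under isoflurane. The brighter probe under CO2-O2 read 1.00, 0.55 and 0.97 in TBA and 0.94, 0.94 and 0.87 in vehicle rats. These groups overlapped, and the differences were 0.07 ± 0.13 under isoflurane and -0.07 ± 0.13 under CO2-O2. The other, dim Notch1 probe read -4.17, -4.52 and -3.97 in TBA and -4.77, -5.36 and -4.89 in vehicle rats under isoflurane. Under CO2-O2 that probe read -4.77, -4.68 and -4.39 in TBA and -5.27, -5.12 and -4.87 in vehicle rats. Here every TBA rat was above every vehicle rat of its arm, beside non-overlap in 24.0% of all features under isoflurane and 21.0% under CO2-O2. The measured differences were 0.78 ± 0.19 under isoflurane and 0.48 ± 0.19 under CO2-O2, but 1 of the 3 vehicle isoflurane readings behind the first was not well above background, so its size is not exact. The dim probe's values correlated with those of the brighter one at r = 0.13.

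Notch2, which in mice is needed for proximal nephron segments, was too dim to be followed. Its 2 probes were well above background on 6 and 4 of 12 arrays, and the first of them on none of the 3 TBA isoflurane arrays and on 2 of 3 in each other group. Measured levels of the first probe averaged -5.25 ± 0.27 in TBA isoflurane rats and -5.05 ± 0.27 in vehicle isoflurane rats (SD, n = 3 each). Under CO2-O2 they averaged -5.09 ± 0.29 in TBA and -5.03 ± 0.29 in vehicle rats (SD, n = 3 each). These values overlap and are near the detection limit, so no fold is given.

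Notch4, a receptor mostly of endothelium, had 1 probe. It read -0.36, -0.41 and -0.19 in TBA and -0.11, -0.23 and -0.15 in vehicle rats under isoflurane. On the CO2-O2 arrays Notch4 read -0.34, -1.35 and -0.41 in TBA and -0.39, -0.42 and -0.50 in vehicle rats. Groups overlapped in both arms, and the differences were -0.15 ± 0.22 under isoflurane and -0.26 ± 0.22 under CO2-O2. The CO2-O2 value rests on TBA rat 2, and without that array it was 0.06. Of 10 endothelial markers, 5 were higher with TBA under isoflurane (median -0.03) and 8 under CO2-O2 (median 0.11), with none past the test. Their mean level ran from -0.25 to -0.02 in TBA and from -0.12 to 0.06 in vehicle rats under isoflurane, and from -0.10 to 0.08 in TBA and from -0.20 to -0.11 in vehicle rats under CO2-O2.

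**Figure D2:**
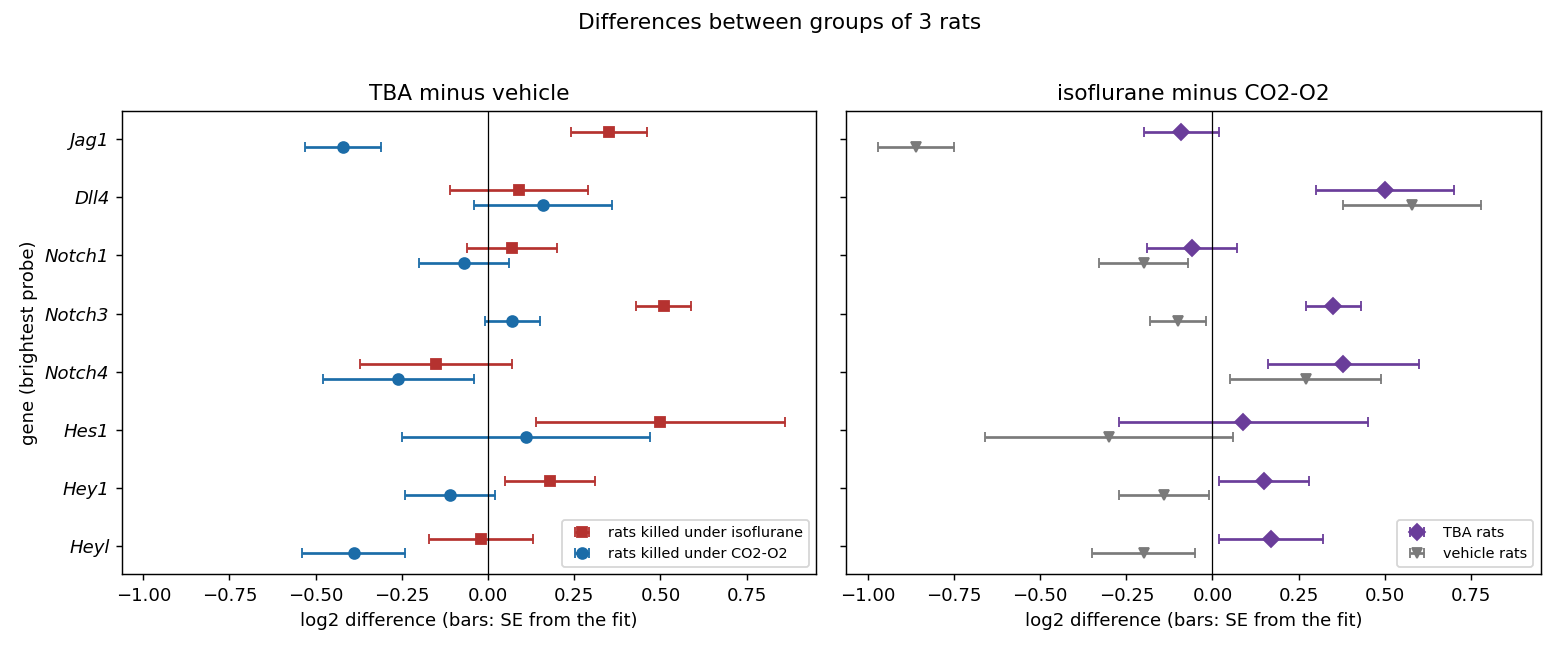
Log2 differences with their SE for the brightest probe of 8 genes, TBA minus vehicle under each anesthetic (left) and isoflurane minus CO2-O2 in TBA and in vehicle rats (right), from groups of 3. Jag1 lies at 0.35 under isoflurane and -0.42 under CO2-O2, and at -0.86 between the anesthetics in vehicle rats.

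The target genes gave no shared direction. Hes1, a basic helix-loop-helix repressor that many signals besides Notch also switch on, read -0.98, -1.22 and -1.73 in TBA and -1.84, -1.81 and -1.78 in vehicle rats under isoflurane. Hes1 under CO2-O2 read -1.86, -1.88 and -0.45 in TBA and -1.14, -1.78 and -1.60 in vehicle rats. The isoflurane groups did not overlap, as in 24.0% of all features, though TBA rat 3 lay only just above the vehicle rats. The CO2-O2 groups overlapped. The differences were 0.50 ± 0.36 under isoflurane and 0.11 ± 0.36 under CO2-O2. TBA CO2-O2 rat 3 set the second value, which was 1.05 within slide 1 and -0.36 without that array.

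The other Hes1 probe, also well above background on all 12 arrays, gave another picture. It read -1.80, -2.13 and -1.54 in TBA and -1.86, -1.72 and -1.81 in vehicle rats under isoflurane, which overlap. Its CO2-O2 values were -1.98, -1.88 and -1.62 in TBA and -1.27, -1.55 and -1.65 in vehicle rats, which also overlap, with a difference of -0.33 ± 0.16. The probes correlated at r = 0.21. The named genes most like the brighter Hes1 probe included Chka, choline kinase alpha (r = 0.899, rho = 0.818), and the cyclin Ccnk (r = 0.893, rho = 0.846). Their r within groups was 0.926 and 0.911.

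Hey1 and Heyl are repressors best known from blood vessels, and on their brighter probes the TBA and vehicle groups overlapped in both arms. The brighter Hey1 probe ran from -2.98 to -2.92 in TBA and from -3.37 to -2.86 in vehicle rats under isoflurane, and from -3.28 to -2.90 in TBA and from -3.02 to -2.92 in vehicle rats under CO2-O2. Its differences were 0.18 ± 0.13 under isoflurane and -0.11 ± 0.13 under CO2-O2. The other Hey1 probe was well above background on 2 of 12 arrays and gives no usable value. Heyl read -2.92, -2.78 and -3.01 in TBA and -3.03, -2.70 and -2.92 in vehicle rats under isoflurane, a difference of -0.02 ± 0.15. Heyl under CO2-O2 read -3.11, -2.95 and -3.16 in TBA and -2.56, -2.45 and -3.03 in vehicle rats, a difference of -0.39 ± 0.15, with 1 vehicle rat inside the TBA range. The other Heyl probe gave 0.04 ± 0.14 under isoflurane and -0.28 ± 0.14 under CO2-O2. There its TBA rats (-4.27 to -3.98) were all below its vehicle rats (-3.92 to -3.80), beside non-overlap in 21.0% of all features. In each arm the 2 Heyl probes differed by less than the SE of either.

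**Figure D3:**
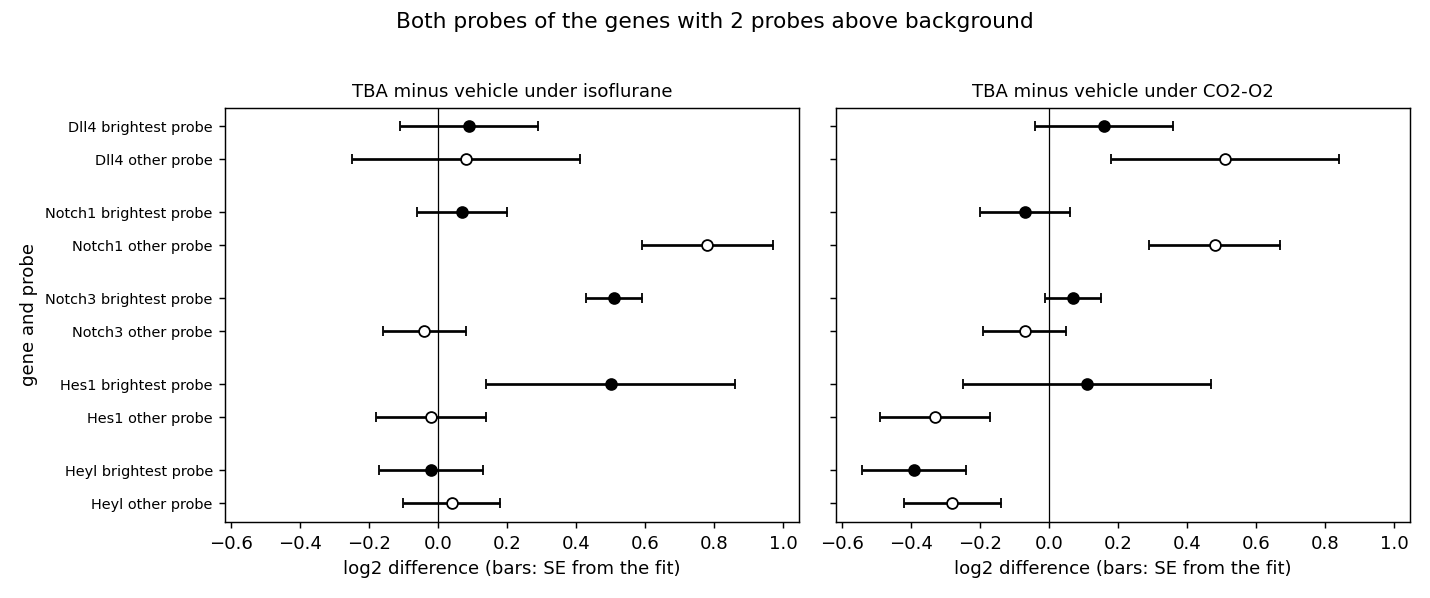
Log2 difference of TBA minus vehicle, with SE, for both kept probes of 5 genes under isoflurane (left) and CO2-O2 (right). Filled points are the brightest probe and open points the other. The Notch3 probes lie at 0.51 and -0.04 under isoflurane, and the Notch1 probes at 0.07 and 0.78, the second with 1 of its 3 vehicle readings not well above background.

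Read together, the 8 genes had a median TBA difference of 0.13 under isoflurane, with 6 higher and 2 lower, and of -0.09 under CO2-O2, with 3 higher and 5 lower. The median of all features was 0.02 in both arms. At an adjusted p under 0.05 limma called 0.395% of all features under isoflurane and 0.149% under CO2-O2, and of the 8 genes 1 (Notch3) and 0. In the TBA effect averaged over both anesthetics it called 1.87% of features and 1 of the 8 genes, again Notch3 (0.29 ± 0.05). For isoflurane minus CO2-O2 averaged over both treatments it called 0.287% of features and 1 of the 8 genes, Jag1 (-0.47 ± 0.08). The difference of the TBA effects between anesthetics called 0.00% of features, where 3582 of 29603 had an unadjusted p under 0.05, and no member. The members were chosen with these groups, so the counts are descriptions. Under isoflurane the Notch3 call was lost with quantile scaling, normexp, no filter on dim probes or the mean of a gene's probes. It was also lost with slide as a random block, replicate number as a block or only the arrays compared, where no feature was called. The averaged Notch3 call was lost with quantile scaling, normexp, no filter, averaged probes, scan day or replicate number in the fit. The Jag1 call for the anesthetics was lost with slide as a random block, replicate number as a block, scan day in the fit and no filter on dim probes.

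After Jag1 and Dll4, the pair of members with the r of largest size over the 12 arrays was Dll4 and Notch1 (r = -0.587, rho = -0.622). Within groups, Dll4 and Heyl correlated at r = 0.797 and Notch1 and Notch4 at r = 0.863, but over all 12 arrays r was 0.230 and 0.388. Jag1 and Notch3 had r = 0.059 over 12 arrays, Jag1 and Hes1 0.265, and Notch3 and Hes1 0.131. These pairs share slides, groups and array scaling. The named genes most like Jag1 were the phosphate transporter Slc34a2 (r = 0.947, rho = 0.958, within groups 0.653), the decoy receptor Tnfrsf11b (r = 0.945, rho = 0.902, within groups 0.901) and Fam43a (r = 0.929, rho = 0.937, within groups 0.888).

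The rest of the pathway was followed with 56 further genes in 8 roles, of which 45 had a probe and 41 were tested. For these genes the p-values of limma are given, adjusted over all 29603 features. Under isoflurane 1 of the 41 fell with TBA and none rose, beside 0.395% of all features called. An unadjusted limma p under 0.05 was found for 9 of the 41, beside 5284 of 29603 features (17.8%). Under CO2-O2 none of the 41 passed in limma, beside 0.149% of all features. There 8 of the 41 had an unadjusted p under 0.05, beside 4221 of 29603 (14.3%). In the averaged TBA effect 1 of the 41 fell and none rose, beside 1.87% of all features called. For it 14 of the 41 had an unadjusted p under 0.05, beside 5636 of 29603 (19.0%). None passed for the difference of the TBA effects between anesthetics (6 of 41 unadjusted, beside 3582 of 29603, 12.1%). None passed for isoflurane minus CO2-O2 either (7 of 41 unadjusted, beside 5085 of 29603, 17.2%). The median TBA difference of the 41 was 0.02 under isoflurane and -0.03 under CO2-O2, beside 0.02 for all features.

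The gene that fell under isoflurane was Eogt, which adds N-acetylglucosamine to EGF repeats such as those of Notch receptors. It read -3.14, -3.34 and -3.48 in TBA rats, against -2.56, -2.74 and -2.71 in vehicle rats. All TBA rats lay below all vehicle rats, beside non-overlap in 24.0% of all features. The difference was -0.65 ± 0.11 (limma adjusted p = 0.0439). Under CO2-O2 Eogt read -3.10, -3.01 and -3.10 in TBA and -3.40, -3.04 and -3.18 in vehicle rats (0.14 ± 0.11, limma adjusted p = 0.590). The difference of the 2 effects was -0.80 ± 0.15 (limma adjusted p = 0.205). The isoflurane call was lost without any 1 of the 12 arrays (adjusted p 0.0538 to 0.131 in limma), with sizes between -0.74 and -0.58, and with slide as a random block (adjusted p = 0.0878).

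**Figure D4:**
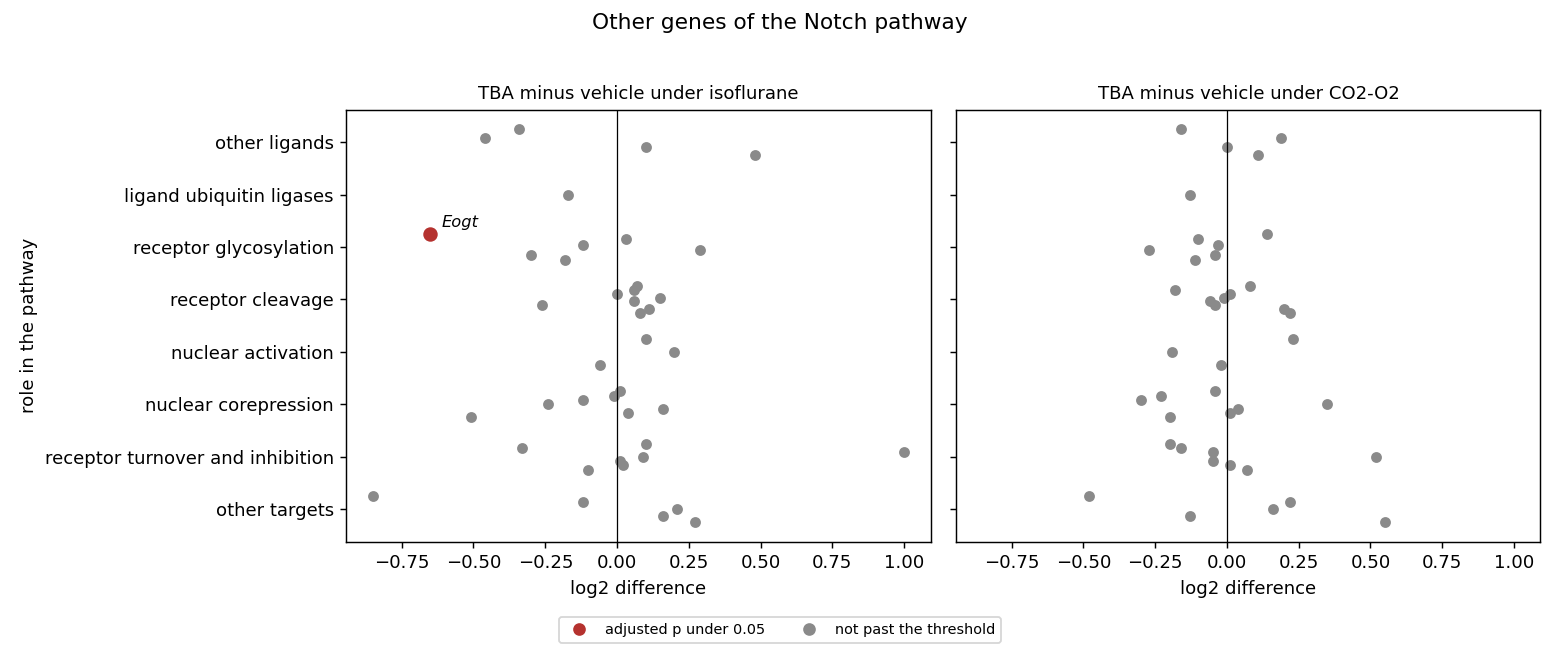
Log2 difference of TBA minus vehicle under isoflurane (left) and CO2-O2 (right) for 41 other genes of the Notch pathway, 1 point per gene, grouped by role. Only Eogt, at -0.65 under isoflurane, passed an adjusted p of 0.05.

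No gene of the receptor-cutting machinery passed in either arm. Of 8 tested genes of receptor cleavage 6 were higher and 2 lower with TBA under isoflurane (-0.26 to 0.15), and 4 were higher and 4 lower under CO2-O2 (-0.18 to 0.22). The brightest were the gamma-secretase subunits Psenen (0.08 ± 0.07 and 0.22 ± 0.07), Aph1b (0.00 ± 0.07 and 0.01 ± 0.07) and Ncstn (0.06 ± 0.05 and -0.06 ± 0.05), and Furin, which cuts the receptor precursor (0.15 ± 0.07 and -0.01 ± 0.07), each under isoflurane and then CO2-O2. Besides Eogt, the sugar-modifying enzymes included Rfng (-0.18 ± 0.07 and -0.11 ± 0.07), Mfng (-0.12 ± 0.14 and -0.03 ± 0.14) and Pofut1 (0.29 ± 0.47 and -0.27 ± 0.47) in the same order. Of the 6 tested, 2 were higher and 4 lower under isoflurane, and 1 was higher and 5 lower under CO2-O2.

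Among nuclear partners, 3 of 7 listed activators and 7 of 9 listed corepressors were tested, and none was called in a single arm. Rbpj itself stood at 0.20 ± 0.14 under isoflurane and -0.19 ± 0.14 under CO2-O2 (limma adjusted p = 0.491 and 0.576). The coactivator Snw1 was at -0.06 ± 0.06 and -0.02 ± 0.06, and the acetyltransferase Kat2a at 0.10 ± 0.16 and 0.23 ± 0.16. The corepressors Ctbp1 (0.01 ± 0.07 and -0.04 ± 0.07), Hdac1 (-0.01 ± 0.07 and -0.23 ± 0.07) and Tle3 (0.04 ± 0.10 and 0.01 ± 0.10) did not pass. Of 4 listed ubiquitin ligases of ligands 1 was tested, Mib1, which lets ligands be endocytosed; it was at -0.17 ± 0.06 and -0.13 ± 0.06 and did not pass either (averaged effect -0.15 ± 0.04, limma adjusted p = 0.0993).

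Other ligands were dim, with 4 of 5 tested and none called. Dll1, a Delta ligand, was at 0.10 ± 0.14 under isoflurane and 0.00 ± 0.14 under CO2-O2, Dll3 at 0.48 ± 0.16 and 0.11 ± 0.16, Dlk1 at -0.34 ± 0.31 and -0.16 ± 0.31, and Dlk2 at -0.46 ± 0.19 and 0.19 ± 0.19. Of genes that turn over or inhibit receptors, the brightest 4 were Nedd4 (0.01 ± 0.07 and -0.05 ± 0.07), Dtx2 (0.10 ± 0.09 and -0.20 ± 0.09), Dtx3 (-0.33 ± 0.10 and -0.16 ± 0.10) and Numb (-0.10 ± 0.06 and 0.07 ± 0.06), and none passed. Dtx4, a Deltex ubiquitin ligase, was chosen for mention after its values were seen. It read -4.59, -4.30 and -4.37 in TBA and -4.95, -5.87 and -5.43 in vehicle rats under isoflurane. Dtx4 had no overlap there, as in 24.0% of all features, and did not pass (1.00 ± 0.22, limma adjusted p = 0.0754). It was well above background on 11 of 12 arrays, and its lowest value, in vehicle isoflurane rat 2, lies below the -5.10 of the dimmest probe measured well on that array, so the size is not exact. Under CO2-O2 the Dtx4 difference was -0.05 ± 0.22.

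Other target genes of the pathway also gave no call among 5 tested. Ccnd1, which encodes cyclin D1 and answers to many growth signals, read 3.32, 3.74 and 3.23 in TBA and 4.08, 4.61 and 4.17 in vehicle rats under isoflurane (-0.85 ± 0.26, limma adjusted p = 0.137). Ccnd1 under CO2-O2 read 2.35, 3.24 and 3.33 in TBA and 3.56, 3.54 and 3.25 in vehicle rats (-0.48 ± 0.26, limma adjusted p = 0.435). The isoflurane groups did not overlap, as in 24.0% of all features, and the CO2-O2 groups did. Hes7, known from the segmentation clock of the embryo, was at 0.21 ± 0.10 and 0.16 ± 0.10, Myc at 0.27 ± 0.19 and 0.55 ± 0.19, and Efnb2 at -0.12 ± 0.13 and 0.22 ± 0.13, under isoflurane and then CO2-O2.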

How the data were processed

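Cy3-labelled cRNA from 0.2 ug of total RNA was hybridised to Agilent arrays, per the labels' protocols. The deposited intensity values came from Agilent Feature Extraction 10.7, per the submitters' processing notes (10.7.1.1 per the file headers), with background subtracted within each array. The submitters' table holds signal values that the authors deposited, linear ratios to the 75th percentile as judged from the values, with column medians of 0.101 to 0.107 and no stated scale. Each of its 12 columns matched (r at least 0.9999) a scanner file that carries a different replicate number within that group, and the scanner files' numbers are used.

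Log2 of the deposited intensity minus the array's 75th percentile was analysed. A probe was kept (40216) if it was well above background in all 3 rats of some group, and the brightest kept probe stood for a gene. Of 61657 probes 27460 had 1 symbol, 0 several and 34197 none after accessions were matched to RefSeq names of GRCr8. One mean per group was fitted over 29603 features with limma 3.58.1 in R 4.3.3, without covariates (8 residual and 1.89 prior degrees of freedom), with Benjamini-Hochberg adjustment and a threshold of 0.05. The fit was tested on simulated data. Array number limits the precision, and no probe was saturated.

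Members and lists were chosen with earlier results of these data known, and a Notch3 difference had already been seen in them. Of the other pathway genes, those past the threshold and the 4 brightest per list are named, and some results that this rule or the next gives are not reported here. Likeness was the highest Pearson r over the 12 arrays. Alternatives were other scaling (quantile, median, normexp with offset 50), the submitters' table, other filters, averaging the probes of a gene, slide, scan day or replicate number in the fit, only the arrays compared, and each array left out. The comparison within slide 1 was added after seeing the data. Same-numbered rats of different groups did not deviate together, and no label ties them, so the numbers were not used as pairs.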

Additional observations from a re-analysis of the deposited data

Results flagged for a closer look

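Among the 8 members and the 41 other pathway genes tested, Jag1, Ncstn and Tle1 are those whose TBA and vehicle groups lay apart without overlap in both arms, in opposite directions. For Jag1 the TBA difference was 0.35 under isoflurane and -0.42 under CO2-O2. For Ncstn, a gamma-secretase subunit, it was 0.06 under isoflurane and -0.06 under CO2-O2, and for Tle1, a Groucho-type corepressor, -0.24 under isoflurane and 0.35 under CO2-O2. Over all features 1.61% showed such a pattern. The difference between the arms did not pass limma for Ncstn (adjusted p = 0.547) or Tle1 (adjusted p = 0.276), where no feature of 29603 passed and 3582 had an unadjusted p under 0.05. No p is given for Jag1, which was chosen on these groups. Under isoflurane slide and treatment cannot be told apart. Under CO2-O2 the 1 TBA rat on the slide of the vehicle rats gave -0.43 for Jag1, in a comparison added after seeing the data.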

How the results depend on the processing

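Jag1 kept its signs in both arms in every setting run, with TBA differences of 0.35 to 0.39 under isoflurane (11 settings) and -0.44 to -0.28 under CO2-O2 (13 settings). Notch3 under isoflurane stayed between 0.24 and 0.55 and passed the threshold in 4 of 11 settings and in 2 of 12 fits without 1 array, those without TBA CO2-O2 rat 2 or 3. Its averaged effect passed in 4 of 10 settings and in 1 of 12 such fits. Jag1 for isoflurane minus CO2-O2 passed in 6 of 10 settings, not with slide as a random block, scan day, the replicate block or no filter, and in 1 of 12 such fits. Dll4 for that contrast passed in 1 of 10, with the replicate block. The members were chosen with these groups, so these calls are descriptions and not tests. Over the settings limma called 0 to 1310 of all features under isoflurane, 63 to 976 for the averaged effect and 12 to 233 between anesthetics. Without 1 array the numbers were 0 to 99, 73 to 995 and 17 to 93 in the same order.

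The number of other pathway genes called under isoflurane was 1, and 0 with quantile scaling, no filter, averaged probes, slide as a random block, scan day as a fixed term, the replicate number as a block or only the arrays compared. It was 4 with normexp (Dll3, Dtx4 and Eogt among them), where 1310 features were called, against 117 in the main fit. With any 1 array left out it was 0, where 0 to 99 features were called. In the averaged effect the number was 1, and 0 with no filter, averaged probes, slide as a random block, scan day or the replicate block. It was 2 with normexp (Eogt among them), where 976 features were called, against 555 in the main fit. Without 1 array it ranged from 0 to 1. For isoflurane minus CO2-O2 it was 0, and 2 with normexp (Dtx4 among them), where 233 features were called, against 85 in the main fit. It was 0 to 1 without 1 array (1, Dtx4, without vehicle isoflurane rat 1). The cause was not tested.

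The median difference of the 8 members under CO2-O2 ranged from -0.24 to 0 without 1 array. Under isoflurane it was 0.21 with averaged probes and ranged from 0.13 to 0.21 without 1 array. The gap between arms was 0.33, and 0.40 with median centring, 0.26 with normexp, averaged probes or scan day, and 0.23 to 0.36 without 1 array. Deviations from group means correlated at -0.133 to 0.133 between same-numbered rats (18 pairs) and -0.191 to 0.222 between others (36 pairs). With the replicate block, features called under isoflurane fell to 0, against 117 without it. Slide as a fixed term could be estimated under CO2-O2 alone. Dim signal limits Notch2, the other Hey1, Notch1 and Dll4 probes and Dtx4.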
